A study of Mus musculus with 79 samples.

Results

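Madcam1 and 9 other genes of leukocyte adhesion to vessel walls were followed through 79 RNA libraries from 51 mice. The members were named by gene symbol, as Madcam1, Vcam1, Icam1, Icam2, Sele, Selp, Pecam1, Cdh5, Jam2 and Itgb7, and all 10 of 10 were found among the 39063 features with a numeric gene ID and passed the expression filter that left 14873 genes for testing. Madcam1 was chosen by its response to leptin in the caudal vertebrae of wild-type mice and by the lack of that response in inguinal white adipose tissue, so its values in these contrasts, and in interactions built on them, are given as a description with no test. The other 9 members were named for their function, with earlier results of these data known.

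All mice were BMAd-Pnpla2 mice on a mixed SJLxC57BL6 background, aged 4 to 5 months by the sample labels. The study itself gives 4 to 6 months for these mice and 5 to 6 months for its insulin pellet experiment. Mice received PBS or leptin at 100 ng per h into the brain ventricles (ICV) for 9 days. In the study they were pair-fed after recovery from surgery. WT mice were BMAd-Pnpla2+/+, and cKO mice were BMAd-Pnpla2-/-, which lack the lipase ATGL in bone marrow adipocytes. Caudal vertebrae (CV), whose marrow is rich in fat, were sequenced from every mouse, with 5 PBS and 5 leptin WT females, 4 and 4 cKO females, 5 and 8 WT males, and 5 and 4 cKO males. A further 5 PBS and 6 leptin WT males also received subcutaneous insulin. Lumbar vertebrae (LV), a site with little or no marrow fat, came from the WT and cKO females, and inguinal white adipose tissue (iWAT) came from the WT females. The recombinase driver was not given in the sources used here, and each library is 1 tissue of 1 mouse with all its cell types.

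MAdCAM-1 is an adhesion molecule of endothelium, known from the high endothelial venules and flat venules of gut lymphoid tissue, where lymphocytes bearing the integrin made from the Itga4 and Itgb7 products stop and leave the blood. Selectins let leukocytes roll, members of the immunoglobulin family such as VCAM-1 and the ICAMs hold them firmly, and junction proteins such as PECAM-1, VE-cadherin and JAM-B line the contacts between endothelial cells. In marrow, the sinusoids carry several of these molecules and are the route by which blood cells come and go. In a bulk library, fewer cells of a type and less RNA per cell cannot be told apart.

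The promoters of the members that rose with leptin in CV are shown because transcription of Madcam1 is known to depend on kappa-B sites, at which NF-kB factors bind. RefSeq promoters of GRCm38.p6 matched 5 of the 10 members, which were Madcam1, Selp, Sele, Icam1 and Itgb7. The kappa-B consensus was searched on both strands of the 250 bases before and 50 bases after each start, and capitals mark its matches in the 250 bases before the start.
Madcam1, chr10:79664309-79664558, plus strand: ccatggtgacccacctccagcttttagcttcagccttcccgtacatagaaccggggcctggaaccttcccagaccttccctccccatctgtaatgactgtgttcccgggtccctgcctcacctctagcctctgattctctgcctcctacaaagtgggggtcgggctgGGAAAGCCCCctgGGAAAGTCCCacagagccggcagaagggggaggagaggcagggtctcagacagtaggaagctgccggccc
Selp, chr1:164115014-164115263, plus strand: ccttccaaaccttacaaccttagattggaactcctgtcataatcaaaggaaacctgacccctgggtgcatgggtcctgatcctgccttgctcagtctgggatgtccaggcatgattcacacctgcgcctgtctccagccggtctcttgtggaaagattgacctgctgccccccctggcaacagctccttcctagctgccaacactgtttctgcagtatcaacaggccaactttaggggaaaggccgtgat
Madcam1 held 2 matches, GGAAAGCCCC at bases -83 to -74 and GGAAAGTCCC at bases -70 to -61 from the start, both read on the minus strand and not overlapping. At least 1 match was found in 8.46% of the 32851 promoters of the same length and at least 2 in 1.22%. The windows of Selp, Sele, Icam1 and Itgb7 held no match to the consensus as searched. Sites that depart from it in any letter were not counted, so a lack of matches does not show a lack of kappa-B sites. A match is a description of letters, and binding was not measured.

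Total counts per library lay between 16100377 and 19364106 for CV, between 17638318 and 19100698 for iWAT and between 28717516 and 29757254 for LV. Pnpla2, the targeted gene, was at 216.56 to 287.67 TPM in WT and 131.37 to 255.77 TPM in cKO female CV with PBS, and at 190.64 to 294.35 TPM and 135.43 to 209.42 TPM in male CV, so the ranges overlapped in bone that holds many other cells. Summed over the 16 endothelial identity genes, CV libraries held 523.4 to 1147 TPM, iWAT libraries 534.2 to 845.8 TPM and LV libraries 121.9 to 192.6 TPM, so endothelial RNA was found in each tissue. Pairs of libraries within a group differed by more than sampling noise, and p-values measure the spread between these mice.

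Madcam1 (gene ID 17123, protein-coding, chromosome 10, 79664559 to 79668542 in GRCm38.p6) was several times higher with leptin in the CV of WT mice of both sexes. TPM values are transcript abundances corrected for length and scaled to the same total in each library. Female WT CV with PBS held 5.25, 6.57, 7.42, 11.35 and 10.23 TPM, and with leptin 39.14, 43.91, 53.28, 59.51 and 59.74 TPM. Male WT CV with PBS held 6.18, 2.7, 7.36, 6.17 and 8.44 TPM, and the 8 leptin libraries had a lowest value of 25.76, a median of 29.62 and a highest value of 48.32 TPM. All leptin libraries lay above all PBS libraries in each sex. Means were 8.16 ± 2.55 and 51.1 ± 9.29 TPM (SD, n = 5 and 5) in females and 6.17 ± 2.16 and 33.6 ± 9.41 TPM (SD, n = 5 and 8) in males. The log2 fold change fitted by edgeR was 2.59 with a standard error of 0.18 in females and 2.39 with a standard error of 0.26 in males, which is the choice of the gene restated and not a test. The leptin change differed by 0.23 between the sexes on the log2 scale, with a standard error of 0.34.

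Mice fell into series by the numbers in their labels, and Madcam1 was higher with leptin in CV within each series of a group that held both treatments. In WT females the mean of log2(TPM + 1) was higher with leptin by 2.53 among mice numbered in the 100s and by 2.31 among those in the 600s. In WT males the same differences were 2.46 and 2.05. In cKO mice, the series numbered in the 100s and the 5400s gave 1.36 and 1.602 in females and 2.31 and 2.09 in males, from 1 to 3 libraries per treatment.

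**Figure D1:**
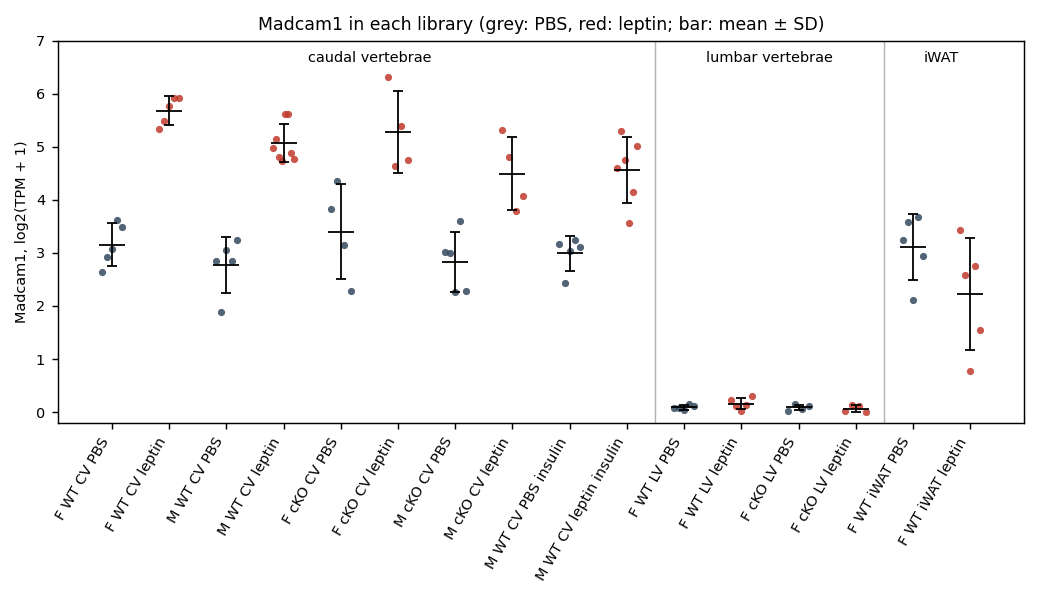
Madcam1 in each of the 79 libraries, as log2(TPM + 1) on the vertical axis, with groups on the horizontal axis (F, female; M, male). Points are libraries, grey for PBS and red for leptin, and bars are means ± SD. Leptin libraries of CV lie above the PBS libraries of the same group, LV lies near 0, and iWAT with leptin spreads from 0.7 to 9.76 TPM.

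In cKO mice, whose marrow adipocytes lack ATGL, Madcam1 moved in the same direction, which was already known when the gene was chosen. Female cKO CV held 13.25, 19.4, 7.9 and 3.85 TPM with PBS and 78.65, 23.92, 40.97 and 26.02 TPM with leptin. Male cKO CV held 7.06, 7.03, 3.79, 11.22 and 3.89 TPM with PBS and 38.81, 27.13, 12.87 and 15.74 TPM with leptin. The groups did not overlap in either sex. Log2 fold changes were 1.99 (SE 0.52) in females and 1.84 (SE 0.35) in males, but adjusted p-values were 0.265 and 0.0715 by the quasi-likelihood test of edgeR (Benjamini-Hochberg over all genes), so neither passed the threshold of 0.05. Of the 10 members, 0 were called in female cKO CV and 0 in male cKO CV, where 0.0269% and 0.188% of all tested genes were called. To be called, a gene had to reach an adjusted p under 0.05 and a log2 change of 0.5 or more in either direction. Unadjusted p-values were below 0.05 for 4 members in each sex, and DESeq2 called 2 members in each, Madcam1 and Vcam1. Over all genes, 11.6% and 9.66% had an unadjusted p below 0.05, and DESeq2 called 1.47% and 1.43%. For Madcam1 the adjusted p was 0.00662 in females and 7.14e-05 in males by DESeq2, 0.00131 and 0.0151 when all CV groups shared 1 edgeR fit, and ranged over the alternatives from 0.00131 to 0.357 and from 7.14e-05 to 0.175. Without PBS replicate 4 the male value was 2.17 with an adjusted p of 0.0441 by edgeR. Since the response in cKO CV was known beforehand, these p-values of Madcam1 are a description and not an independent test.

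The leptin change of Madcam1 was smaller in cKO than in WT CV by 0.62 (SE 0.54) in females and 0.55 (SE 0.45) in males on the log2 scale, given without a test since it rests on the WT contrasts. With PBS the genotypes differed in Madcam1 by 0.43 (SE 0.40) in females and 0.15 (SE 0.34) in males, with adjusted p-values of 0.948 and 0.999 by edgeR. Of the 10 members, 0 differed between genotypes with PBS in female CV, 0 in male CV and 0 in LV by edgeR, against 0%, 0% and 0.00672% of all genes. DESeq2 called 0 members in each, against 0.0202%, 0.148% and 0.0471% of all genes. Unadjusted p-values were below 0.05 for 0, 2 and 0 members, against 5.67%, 4.79% and 2.86% of all genes. The pair in male CV were Vcam1, at 0.36 (SE 0.17), and Itgb7, at 0.53 (SE 0.22), higher in cKO with adjusted p-values of 0.999 and 0.948 by edgeR. Of the other 9 members, 0 had a leptin change that differed by genotype in either sex by edgeR, against 0% of all genes in each. DESeq2 called 0 in each, against 0.00672% of all genes in females and 0% in males. Unadjusted p-values were below 0.05 for 0 members in females and for 1 in males, against 6.09% and 2.64% of all genes. That member was Selp, whose leptin change was lower in cKO males by 0.53 (SE 0.23). The leptin change differed by sex in WT CV for 0 of these 9 members by edgeR, 0 by DESeq2 and 0 at an unadjusted p below 0.05, against 0%, 0.188% and 7.60% of all genes.

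Insulin given with leptin left the rise of Madcam1 in place, and this contrast played no part in choosing the gene. With insulin, the 5 PBS libraries held 8.02, 4.37, 7.22, 8.49 and 7.59 TPM. The 6 libraries with leptin and insulin had a lowest value of 10.81, a median of 24.6 and a highest value of 38.6 TPM, above every PBS library. The log2 fold change was 1.81 (SE 0.28) with an adjusted p of 0.0062 by edgeR's quasi-likelihood test. That fit also held the male WT CV libraries without insulin, on which the gene was chosen. Their spread entered the test, so it is not fully separate from the choice. The change passed under the 7 alternatives fitted to this contrast and without any 1 library, with adjusted p-values up to 0.032. A covariate for the mouse series was not among these alternatives. Of the 6 mice with leptin and insulin, 3 had numbers in a series without PBS mice. Within the series numbered in the 300s, with 3 leptin and 5 PBS mice, the mean of log2(TPM + 1) was higher with leptin by 1.89. Madcam1 was the 1 member of 10 called in this contrast, where 0.558% of all genes were called. Between leptin with and without insulin Madcam1 was lower with insulin, at -0.46 (SE 0.23, adjusted p of 0.321 by edgeR), and between PBS with and without insulin it differed by 0.12 (SE 0.31, adjusted p of 0.977). The difference between the leptin changes with and without insulin was -0.58 (SE 0.38), given with no test.

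Of the 10 members, 0 were called for insulin among leptin-treated males (0.363% of all genes) and 0 for insulin among PBS-treated males (0% of all genes) by edgeR. DESeq2 also called 0 members in each, against 1.17% and 0.0202% of all genes. Unadjusted p-values were below 0.05 for 2 and 1 members, against 16.6% and 6.56% of all genes. The pair were Selp, at -0.49 (SE 0.19), and Cdh5, at -0.19 (SE 0.09), and the single member with PBS was Sele, at 0.63 (SE 0.28). The leptin change differed with insulin for 0 of the other 9 members by edgeR, against 0% of all genes, and for 0 by DESeq2, against 0.0874%. Unadjusted p-values were below 0.05 for Selp, at -0.83 (SE 0.29), and Cdh5, at -0.30 (SE 0.13), with adjusted p-values of 0.529 by edgeR for each. Over all genes, 9.31% had an unadjusted p below 0.05 for this difference. Selp with insulin held 20.71, 12.81, 11.34, 15.54 and 12.94 TPM with PBS, and a lowest value of 7.72, a median of 16.1 and a highest value of 24.29 TPM with leptin, so these groups overlapped. All mice with insulin had numbers in other series than the mice without it, so insulin and series cannot be told apart in contrasts across insulin.

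In LV, Madcam1 was close to absent at this depth. The WT libraries held 1 to 4 counts with PBS and 1 to 7 with leptin, and the cKO libraries 1 to 4 and 0 to 3. Summed over libraries, WT LV with PBS held 12 counts, with an exact Poisson 95% interval of 6.20 to 21.0 that covers counting error only, and with leptin 19 counts, with an interval of 11.4 to 29.7. The leptin change was 0.60 (SE 0.54) in WT and -0.23 (SE 0.83) in cKO, and a difference could not be detected at such counts. Of the 10 members, 0 were called with leptin in WT LV and 0 in cKO LV by edgeR, against 0% of all genes in each, and DESeq2 called 0 members in each, against 0.955% and 0.484% of all genes. Unadjusted p-values were below 0.05 for 2 and 1 members, and for 14.7% and 8.95% of all genes. Those were Itgb7 in WT, at 0.26 (SE 0.07), Sele in WT, at 0.21 (SE 0.08), and Itgb7 in cKO, at 0.35 (SE 0.09).

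In iWAT, Madcam1 was present at the level of CV with PBS and was not higher with leptin. The PBS libraries held 8.48, 11.01, 3.35, 11.74 and 6.73 TPM and the leptin libraries 9.76, 5.01, 0.7, 5.76 and 1.94 TPM, with a log2 fold change of -0.78 (SE 0.56) and overlapping groups. Seen by series, the difference in mean log2(TPM + 1) was 0.02 among mice numbered in the 100s and -1.62 among those in the 600s. The fat pad carries a lymph node, and the 7 lymph node markers summed to 161.7 to 1099 TPM with PBS and to 182.1 to 2540 TPM with leptin. Leptin replicate 3, with the lowest Madcam1, had a marker sum of 182.1 TPM, whereas PBS replicate 2, with a sum of 161.7 TPM, held 11.01 TPM of Madcam1. Glycam1, a mucin of high endothelial venules, was at 43.4 to 612 TPM with PBS and 1.33 to 1266 TPM with leptin in iWAT, but at 0 to 0.62 TPM in the 51 CV libraries. In female WT CV the 7 markers summed to 64.97 to 121.35 TPM with PBS and 93.38 to 157.72 TPM with leptin. In male WT CV they summed to 74.89 to 125.83 and 95.35 to 290.84 TPM. By edgeR 1 of 7 was called in females, Ccr7, at 0.716 (SE 0.195, adjusted p of 0.0428), and 0 in males, against 5.04% and 1.75% of all genes. The part of lymph node tissue in the iWAT values of Madcam1 was not tested.

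Across the 16 groups, the 5 leptin-treated CV groups held the highest means of Madcam1, from 23.6 to 51.1 TPM. The 5 PBS-treated CV groups and iWAT with PBS lay between 6.17 and 11.1 TPM, iWAT with leptin at 4.63 TPM, and the 4 LV groups between 0.0475 and 0.118 TPM. Neighbours in this order overlapped in their libraries, except that all iWAT libraries with leptin lay above all LV libraries with leptin. Divided by Pecam1, which marks endothelial cells at large, Madcam1 in female WT CV had a ratio of 0.0487 to 0.0956 with PBS and 0.350 to 0.614 with leptin, and in male WT CV 0.0294 to 0.0921 and 0.214 to 0.525.

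**Figure D2:**
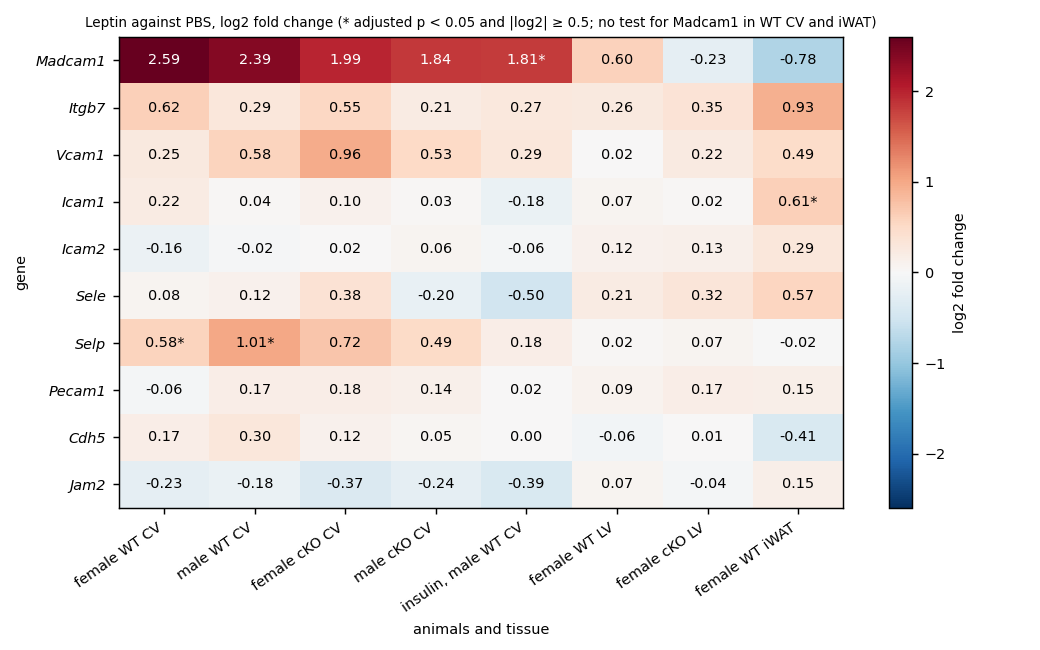
Log2 fold changes of leptin against PBS from edgeR for the 10 members (vertical axis) in 8 sets of animals and tissue (horizontal axis), with colour and printed value giving the change. Asterisks mark members past the threshold, with no test for Madcam1 in WT CV and iWAT. Madcam1 is above 1.8 in the 5 CV columns, and Selp passed in both WT CV columns.

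Among the selectins, Selp was the member that rose with leptin in the CV of WT mice of both sexes. Selp (chromosome 1, 164115264 to 164150026) encodes P-selectin, which endothelial cells and platelets keep in storage granules and bring to the surface when activated. Female WT CV held 15.68, 18.46, 20.42, 20.26 and 17.95 TPM with PBS and 30.15, 18.03, 39.52, 34.6 and 21.25 TPM with leptin, so 1 leptin library lay within the PBS range. Male WT CV held 10.97, 9.15, 13.15, 10.04 and 11.03 TPM with PBS, and with leptin a lowest value of 15.98, a median of 21.0 and a highest value of 33.93 TPM, with no overlap. The log2 fold change was 0.58 (SE 0.15, adjusted p of 0.0389 by edgeR) in females and 1.01 (SE 0.17, adjusted p of 0.00533 by edgeR) in males. Selp was the 1 of the other 9 members called in females, where 5.04% of all genes were called, and the 1 of 9 called in males, where 1.75% were. In females the call was lost without any of 7 of the 10 libraries, namely PBS replicates 1, 2, 4 and 5 and leptin replicates 1, 3 and 4, with adjusted p-values of 0.0571 to 0.0962, and in males it held without any library. The female call was also lost under 3 of 9 alternative fits to all libraries, with adjusted p-values from 0.00524 to 0.108 over all 9. The male call held under all 9. In cKO CV the change of Selp was 0.72 (SE 0.26, adjusted p of 0.362 by edgeR) in females and 0.49 (SE 0.12, adjusted p of 0.122) in males, and with insulin 0.18 (SE 0.21, adjusted p of 0.72).

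The 8 platelet and megakaryocyte markers were given beside Selp because platelets hold its transcript as well. They summed to 299.9 to 405.9 TPM with PBS and 310.3 to 507.2 TPM with leptin in female WT CV, and to 340.3 to 471.7 and 429.7 to 691.8 TPM in male WT CV. Of these markers 0 of 8 were called in either sex by edgeR and by DESeq2, with 1 at an unadjusted p below 0.05 in each and medians of -0.19 and 0.09 on the log2 scale against -0.01 and 0.00 over all genes. Over all genes, edgeR called 5.04% and 1.75%, DESeq2 called 6.84% and 3.13%, and 25.8% and 19% had an unadjusted p below 0.05. In LV the same sum reached 1683 to 2444 TPM while Selp stayed at 7.12 to 12.5 TPM. The part of platelets in the rise of Selp was not tested.

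Sele, which encodes the endothelial E-selectin, had the lowest mean TPM of the members in CV and in iWAT of WT females with PBS, at 3.50 and 0.812 TPM. It held 2.43, 4.47, 4.32, 3.78 and 2.5 TPM with PBS and 4.54, 3.48, 4.71, 2.64 and 3.19 TPM with leptin in female WT CV, with overlapping groups. The leptin change was 0.08 (SE 0.22) in female and 0.12 (SE 0.22) in male WT CV, 0.38 (SE 0.48) and -0.20 (SE 0.20) in female and male cKO CV, and -0.50 (SE 0.27) with insulin, and none of these passed by edgeR.

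Among the immunoglobulin family members, Vcam1 was higher with leptin in 3 of the 5 CV contrasts by more than 0.5 on the log2 scale, without passing the test in any. VCAM-1 binds integrins of the Itga4 product and is also made by marrow stromal cells and macrophages. Male cKO CV held 57.64, 57.12, 57.49, 57.3 and 59.99 TPM with PBS and 101.13, 79.91, 69.48 and 76.58 TPM with leptin, with no overlap, a change of 0.53 (SE 0.11) and an adjusted p of 0.0874 by edgeR. Female cKO CV held 64.66, 65.84, 75.41 and 60.96 TPM with PBS and 195.59, 70.64, 128.1 and 96.59 TPM with leptin, with overlap, a change of 0.96 (SE 0.26) and an adjusted p of 0.288. Male WT CV held 32.87, 37.57, 68.64, 32.6 and 59.29 TPM with PBS, and with leptin a lowest value of 54.11, a median of 72.3 and a highest value of 93.14 TPM, with overlap, a change of 0.58 (SE 0.18) and an adjusted p of 0.0956. In female WT CV the change was 0.25 (SE 0.18) and with insulin 0.29 (SE 0.19). DESeq2 called Vcam1 in these 3 contrasts, with adjusted p-values of 0.000774, 0.0302 and 0.0231, and over all alternatives the adjusted p ranged from 0.000774 to 0.487, from 0.00919 to 0.509 and from 0.0231 to 0.322. It passed by edgeR without leptin replicate 2 in female cKO CV (adjusted p of 0.0454) and without PBS replicate 3 in male WT CV (adjusted p of 0.0299). The 6 macrophage markers summed to 762.2 to 1034 TPM with PBS and 957.7 to 1300 TPM with leptin in male WT CV, and to 671.4 to 1109 and 878 to 1156 TPM in male cKO CV, and their part in these values was not tested.

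Icam1 and Icam2, ligands of leukocyte integrins of the Itgb2 product, had leptin changes between -0.18 and 0.22 on the log2 scale in the 5 CV contrasts, with standard errors of 0.10 to 0.17. Female WT CV held 18.2, 20.22, 16.89, 17.47 and 18.35 TPM of Icam1 with PBS and 31.48, 18.44, 20.13, 19.1 and 19.44 TPM with leptin, where replicate 1 stood apart and the other 4 lay within the PBS range. In iWAT, Icam1 held 27.27, 15.87, 20.38, 22.31 and 20.88 TPM with PBS and 40.91, 24.86, 18.91, 32.93 and 35 TPM with leptin. It was higher with leptin there by 0.61 (SE 0.19, adjusted p of 0.0408 by edgeR) although the groups overlapped, and it was the 1 of the other 9 members called in iWAT, where 15.1% of all genes were called. The call was lost without any of PBS replicates 2, 3, 4 and 5 and leptin replicates 1, 4 and 5, with adjusted p-values of 0.0769 to 0.109. Leptin replicates 1, 4 and 5 also had the high lymph node marker sums of 2540, 2421 and 2326 TPM, and their part in the result was not tested. Vcam1 in iWAT changed by 0.49 (SE 0.17, adjusted p of 0.0585 by edgeR), and without leptin replicate 3 by 0.57 with an adjusted p of 0.0143.

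Itgb7, the leukocyte-borne subunit of the integrin that binds MAdCAM-1, was higher with leptin in female WT CV without passing the test. It held 15.99, 20.09, 29.61, 16.92 and 17.67 TPM with PBS and 27.7, 37.91, 27.62, 32.24 and 31.24 TPM with leptin, a change of 0.62 (SE 0.20, adjusted p of 0.0709 by edgeR). Itgb7 passed under 4 of 9 alternative fits to all libraries, among them DESeq2, with adjusted p-values from 0.0189 to 0.0858 over all 9. PBS replicate 3 lay within the leptin range, and without it the change was 0.83 with an adjusted p of 0.0117. In male WT CV the change was 0.29 (SE 0.20), in cKO females 0.55 (SE 0.36), in cKO males 0.21 (SE 0.19) and with insulin 0.27 (SE 0.20). In iWAT it held 41.86, 29.72, 29.52, 30.11 and 30.75 TPM with PBS and 84, 45.05, 11.17, 79.8 and 69.78 TPM with leptin, a change of 0.93 (SE 0.41, adjusted p of 0.112 by edgeR). Leptin replicate 3, which was low, had the low lymph node marker sum of 182.1 TPM, and without it the change was 1.17 with an adjusted p of 0.00169. Itga4, which encodes the partner subunit, was at 7.95 to 11.95 TPM with PBS and 11.6 to 17.39 TPM with leptin in female WT CV, with overlap. It was not called there by edgeR, and it was picked after its values were seen.

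**Figure D3:**
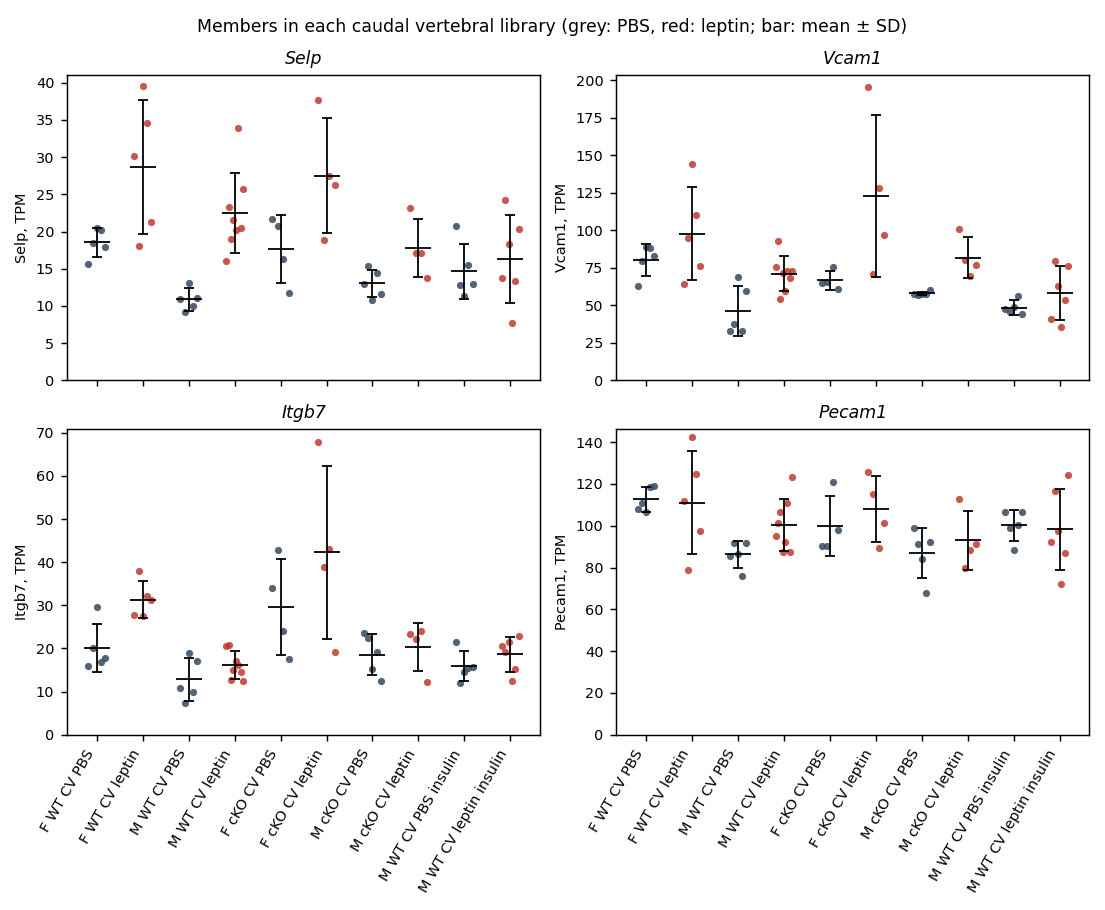
Selp, Vcam1, Itgb7 and Pecam1 in TPM (vertical axes, from 0) in each CV library by group (horizontal axis; F, female; M, male), grey for PBS and red for leptin, with means ± SD. Selp with leptin lies above PBS without overlap in WT males, Vcam1 likewise in cKO males, and Pecam1 overlaps in every pair of groups.

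The junction members were Pecam1, Cdh5 and Jam2. Pecam1, a contact protein that leukocytes meet as they cross endothelium, held 107.79, 110.99, 106.8, 118.68 and 118.92 TPM with PBS and 111.81, 78.9, 142.6, 124.84 and 97.32 TPM with leptin in female WT CV. The leptin libraries lay on both sides of the PBS range, and the change was -0.06 (SE 0.09) in females, 0.17 (SE 0.09) in males, 0.18 (SE 0.11) and 0.14 (SE 0.10) in female and male cKO CV and 0.02 (SE 0.10) with insulin. Cdh5, which encodes VE-cadherin of the adherens junction, changed by 0.17 (SE 0.13) in female and 0.30 (SE 0.09, adjusted p of 0.0843 by edgeR and 0.0223 by DESeq2) in male WT CV, and by -0.41 (SE 0.14, adjusted p of 0.0563) in iWAT. Jam2, which encodes the junctional molecule JAM-B, was lower with leptin in all 5 CV contrasts, by values from -0.18 to -0.39, with unadjusted p-values below 0.05 in 4 of them and none past the adjusted threshold by edgeR. Its adjusted p was lowest with insulin, at 0.0847 by edgeR and 0.0382 by DESeq2, where the change was -0.39 (SE 0.11).

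For comparison between tissues, the leptin changes of CV and iWAT in WT females were set against each other for the 9 members other than Madcam1. Selp and Cdh5 differed, the 2 of 9 called, where 13.3% of all genes were. The tissues came from the same mice, and the main fit held no term for the mouse. Both calls held under all 7 alternative fits to all libraries, among them 1 with the mouse as a block. The leptin change of Selp was higher in CV than in iWAT by 0.61 (SE 0.18, adjusted p of 0.0153 by edgeR), and that of Cdh5 by 0.59 (SE 0.17, adjusted p of 0.0167). Selp in iWAT held 6.39, 6.41, 6.16, 5.46 and 5.27 TPM with PBS and 6.9, 5.51, 4.38, 4.85 and 5.99 TPM with leptin. Cdh5 held 75.48, 73.69, 61.87, 62.83 and 55.81 TPM with PBS and 47.5, 63.95, 45.43, 34.16 and 43.75 TPM with leptin in iWAT, and 42.91, 47.31, 51.96, 48.28 and 52.78 TPM and 44.74, 42.94, 77.76, 65.76 and 49.44 TPM in CV. Without CV leptin replicate 3, which had the highest values of both, the differences were 0.50 for Selp, just under the fold threshold, and 0.47 for Cdh5, with adjusted p-values of 0.0337 and 0.0389. Against LV, 0 of the 9 members differed in their leptin change by edgeR, where 0.814% of all genes did, and 0 by DESeq2, where 2.14% did. An unadjusted p below 0.05 was found for 1 member and for 12% of all genes. That member was Selp, at 0.57 (SE 0.17, adjusted p of 0.105 by edgeR). For Madcam1 the differences were 3.39 (SE 0.53) against iWAT and 2.01 (SE 1.07) against LV, with no test.

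With PBS alone, the members took different levels in the tissues of WT females. The PBS libraries of CV and iWAT gave 6 of 10 members called by edgeR, where 50.5% of all genes were, and those of CV and LV gave 8 of 10, where 65.4% were. The p-values below are from the fit without a term for the mouse, although the tissues came from the same mice. A fit with the mouse as a block left both counts the same. Vcam1 held 62.91, 79.42, 88.91, 88.07 and 82.79 TPM in CV and 19.57, 14.94, 16.1, 20.72 and 23.46 TPM in iWAT. Vcam1, Selp and Sele were higher in CV than in iWAT, by 1.95 (SE 0.18), 1.51 (SE 0.13) and 1.83 (SE 0.22) on the log2 scale, with adjusted p-values of 1.5e-10, 4.4e-11 and 2.77e-08 by edgeR. Cdh5, Jam2 and Itgb7 were lower in CV, by -0.57 (SE 0.12), -0.56 (SE 0.10) and -0.82 (SE 0.29), with adjusted p-values of 0.000167, 2.25e-05 and 0.0143. Madcam1 differed by -0.03 (SE 0.37) between CV and iWAT, with an adjusted p of 0.955 by edgeR. Under limma on log2(TPM + 1) the fold changes of Cdh5 and Jam2 fell under 0.5 and the adjusted p of Itgb7 rose to 0.0502, which left 3 of 10 members called.

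Between CV and LV the values differed by scale. The 6 neutrophil markers summed to 138800 to 169681 TPM in LV of WT females with PBS and to 1882 to 10280 TPM in CV, and their part in the difference between scales was not tested. The log2 ratio of mean TPM had a median of 1.12 over all genes, where edgeR's TMM scaling gave a median of 0.06, a shift of 1.07. By edgeR Madcam1 was higher in CV by 5.80 (SE 0.57, adjusted p of 3.46e-10) from 1 to 4 counts in each LV library, and it was 7.00 by the ratio of mean TPM. Pecam1, Cdh5 and Jam2 were higher in CV by 1.49 (SE 0.10), 1.71 (SE 0.13) and 1.62 (SE 0.11) by edgeR, and by 2.55, 2.77 and 2.64 by TPM. Vcam1 and Itgb7 were lower in CV by edgeR, at -1.35 (SE 0.17) and -1.39 (SE 0.29), but by TPM at -0.28 and -0.33, and limma on log2(TPM + 1) called neither. Icam2 was lower by edgeR, at -0.97 (SE 0.17), and at -0.02 by TPM, and Sele was lower by edgeR, at -0.75 (SE 0.20, adjusted p of 0.00107), but higher by TPM, at 0.44. The direction of Sele, and any change of Icam2, therefore rests on the scaling, while that of Madcam1, Pecam1, Cdh5 and Jam2 was the same under each. Icam1 and Selp were not called by edgeR, at 0.20 (SE 0.16) and -0.16 (SE 0.12), and were at 1.27 and 0.91 by TPM.

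**Figure D4:**
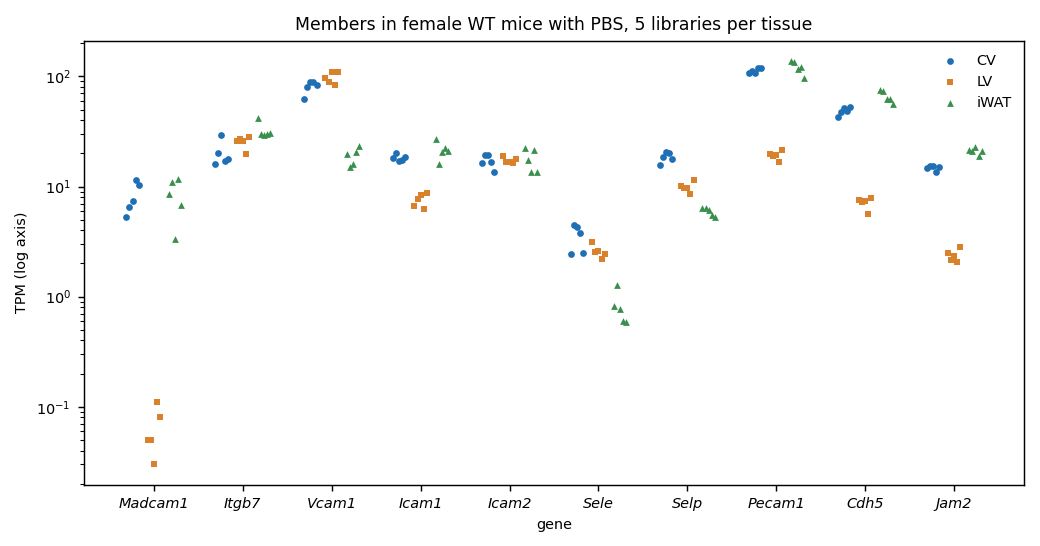
TPM of the 10 members (horizontal axis) in WT females with PBS on a log axis, with 1 point per library and 5 libraries per tissue (circles, CV; squares, LV; triangles, iWAT). Madcam1 lies between 0.03 and 0.11 TPM in LV and between 3.35 and 11.74 TPM in CV and iWAT, and Vcam1, Sele and Selp lie lower in iWAT than in CV.

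The genes around Madcam1 were read from lists chosen with earlier results known, leaving out the members. In female and male WT CV, 5.04% and 1.75% of all genes were called by edgeR, and 6.84% and 3.13% by DESeq2. An unadjusted p below 0.05 was found for 25.8% and 19% of all genes. Of 11 tested genes of high endothelial venules and mucosal addressins, 0 rose and 1 fell in female WT CV, and in male WT CV 0 were called by edgeR and by DESeq2, with 2 at an unadjusted p below 0.05. Medians were 0.06 and 0.04 against -0.01 and 0.00 over all genes. The gene that fell was Enpp2, which encodes autotaxin, at -0.68 (SE 0.15, adjusted p of 0.0221 by edgeR). In iWAT, where 15.1% of all genes were called, 2 of the 11 rose, Cxcl13 by 1.36 (SE 0.28, adjusted p of 0.006 by edgeR) and Gcnt1 by 0.78 (SE 0.22), and 1 fell, Ltbr, the lymphotoxin receptor, by -0.69 (SE 0.09), with a median of 0.78 against 0.07 over all genes. Of 13 leukocyte receptors and ligands of the members, 0 were called in either WT CV group by edgeR, with 5 and 3 at an unadjusted p below 0.05, 1 and 0 by DESeq2, and medians of 0.31 and 0.33, and in iWAT 3 rose, Itgb2, Selplg and Cd44, by 1.07 (SE 0.20), 0.97 (SE 0.27) and 0.74 (SE 0.15). Cxcl13, Glycam1 and Ccl21a of the venule list are also lymph node markers. The lymph node marker sum in iWAT had a median of 737.5 TPM with PBS and 2326 TPM with leptin. The part of lymph node tissue in the iWAT values of both lists was not tested.

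Of 14 other tested endothelial junction and adhesion genes, 2 fell in female WT CV, 1 in male WT CV and 1 with insulin, and 0 rose in any of them, beside 5.04%, 1.75% and 0.558% of all genes called in either direction. Mcam, an adhesion molecule of endothelium and pericytes, fell by 0.75 (SE 0.09, adjusted p of 0.0023 by edgeR) in females, from 73.3 to 91.1 TPM with PBS to 38.1 to 57.6 TPM with leptin, by 0.65 (SE 0.09, adjusted p of 0.00171) in males and by 0.57 (SE 0.11, adjusted p of 0.0164) with insulin. Cldn5, a tight junction protein, fell in females by 0.65 (SE 0.09, adjusted p of 0.00391 by edgeR). In iWAT Mcam fell by 1.49 (SE 0.23) and Jam3 rose by 0.61 (SE 0.20).

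Of 16 NF-kB and TNF family genes, 0 were called with leptin in WT CV of either sex, in cKO CV of either sex or in CV with insulin by edgeR and by DESeq2. At an unadjusted p below 0.05 stood 3, 5, 2, 3 and 1 of them, in the order female WT, male WT, female cKO, male cKO and insulin, with medians between 0.03 and 0.18 in these 5 contrasts. In the same order, 25.8%, 19%, 11.6%, 9.66% and 15.5% of all genes had an unadjusted p below 0.05. The shares of all genes called were 5.04%, 1.75%, 0.0269%, 0.188% and 0.558% by edgeR, and 6.84%, 3.13%, 1.47%, 1.43% and 1.55% by DESeq2. Nfkb2, which was not called, was at 16.1 to 20.3 TPM with PBS and 23 to 29.1 TPM with leptin in female WT CV. In males it was at 12.6 to 18.1 and 15.3 to 20.2 TPM, with overlap. Nfkb2 was picked after its values were seen, and levels of the other genes of this list are not given. In iWAT, where 15.1% of all genes were called, 3 of 16 rose, Nfkbia by 0.79 (SE 0.15), Tnfrsf1b by 0.78 (SE 0.10) and Map3k14 by 0.75 (SE 0.17), with a median of 0.72, where the log2 change of Madcam1 was -0.78. The part of lymph node tissue in these iWAT values was not tested.

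Lists of vessel identity genes were read in the same way. The shares over all genes in female and male WT CV were 5.04% and 1.75% called by edgeR, and 6.84% and 3.13% by DESeq2. At an unadjusted p below 0.05 stood 25.8% and 19% of all genes. Of 16 endothelial identity genes, 1 rose in each WT sex, Eng, a co-receptor of TGF-beta ligands, by 0.55 (SE 0.12, adjusted p of 0.0207 by edgeR) in females and 0.55 (SE 0.08, adjusted p of 0.00195) in males, with medians of 0.04 and 0.16 over the list. Of 6 sinusoid genes 1 rose in each sex, Mrc1 by 0.51 (SE 0.13, adjusted p of 0.0329 by edgeR) in females and Stab2, a scavenger receptor of sinusoids, by 0.97 (SE 0.22, adjusted p of 0.0263) in males, with medians of 0.36 and 0.39. DESeq2 called 2 of the 6 sinusoid genes in each sex, and unadjusted p-values were below 0.05 for 3 in each. Of 8 arteriolar genes 0 were called in either WT CV group by edgeR and by DESeq2, with unadjusted p-values below 0.05 for 3 genes in females and 0 in males, and of 5 lymphatic genes 1 fell in females, Prox1, by 0.77 (SE 0.13, adjusted p of 0.00773). The sinusoid genes summed to 133.3 to 158.6 TPM with PBS and 167.4 to 277.1 TPM with leptin in female WT CV, and to 78.1 to 134.1 and 113.2 to 194 TPM in male WT CV. The part of a changed share of sinusoidal vessel in the values of Madcam1 and Selp was not tested. The 6 macrophage markers summed to 914.2 to 1244 TPM with PBS and 1112 to 1549 TPM with leptin in female WT CV. Of these markers 1 was called there, Cd68, which rose by 0.87 (SE 0.14, adjusted p of 0.0062 by edgeR). The part of macrophages in the rise of Mrc1 was not tested.

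The genes whose levels followed Madcam1 most closely were found by Pearson's correlation of log2(TPM + 1) over the 51 CV libraries, among 14872 genes. They were Lipg, which encodes endothelial lipase, with r = 0.887, Cyp4b1 with r = 0.882, Slc22a14 with r = 0.879, Wdr86 with r = 0.844 and Ptpn18 with r = 0.837. Lipg changed with leptin by 1.34 (SE 0.23) in female and 1.75 (SE 0.29) in male WT CV and by -0.34 (SE 0.28) in iWAT. In LV, where Madcam1 was close to absent, Lipg changed by 0.83 (SE 0.17) in WT and 0.65 (SE 0.18) in cKO. Selp was at rank 20 with r = 0.784, and Jam2 was the member with the lowest value, r = -0.410. After subtraction of each group's mean the closest genes were Ripk3, Ptpn18, Pilrb1, Smap2 and Gmfg, with r from 0.789 to 0.747, while Selp had r = 0.684 at rank 80 and Itgb7 r = 0.669 at rank 113. These values are descriptions over libraries that share treatment, tissue dissection and scaling, and they carry no p-value.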

How the data were processed

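RNA of 79 libraries was enriched by oligo dT and sequenced by the authors in 100 bp pairs, filtered with SOAPnuke and aligned with HISAT and Bowtie2 to GRCm38.p6. The authors deposited estimated counts per gene without normalization, and the counting tool and strand setting were not given in the sources used here. The authors also deposited TPM, scaled to the same total in each library. Of the counts, 51 values of 6 genes were not whole and were rounded. Sele, Selp, Cdh5 and Jam2 each overlap another RefSeq gene, and without strand their reads cannot be told apart from it.

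Genes whose mean TPM reached 0.4 were tested with edgeR 4.0.16 (R 4.3.3, TMM, quasi-likelihood F test, Benjamini-Hochberg adjustment over 14873 genes), each sex, genotype and tissue alone, with interactions and tissue contrasts in joint fits. The thresholds were those of the study, 0.05 for the adjusted p and 0.5 for the size of the log2 change. On simulated counts with 200 changed genes, 196 were recovered for female WT CV, 182 for female cKO CV and 199 for leptin with insulin. The median size of the log2 change was 1.51, 1.47 and 1.50 in that order, and recovery of smaller changes was not tested. All genes were simulated with the same fixed dispersion, and only genes above a minimum mean count were changed. Recovery at the spread of the real libraries was not tested, so these counts do not give the power of the real contrasts. Alternatives were DESeq2 1.42.0, RLE size factors, other expression filters, limma 3.58.1 on TPM with a pseudocount of 1 or 0.1, a replicate block, a covariate for the mouse series, a single fit over the CV groups, and omission of each library. The covariate for the mouse series was not fitted where insulin groups or several tissues were compared. The single fit served only the leptin contrasts of CV without insulin. Members and gene lists were chosen with earlier results of these data known. All 10 members were described in every comparison. Of each list, up to 3 called genes with the largest change were eligible to be named, and levels of Glycam1, Nfkb2 and Itga4 were added after their values were seen. The 5 genes most like Madcam1 were named by correlation. Within a group, a shared sample number across tissues marks 1 mouse.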

Additional observations from a re-analysis of the deposited data

Results flagged for a closer look

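Within the groups, which hold 4 to 8 libraries, 13 of 160 sets of member values had 1 library apart from the rest by Dixon's criterion, which chance meets in about 1 of 20 sets. In CV these were Vcam1 at 59.99 TPM in male cKO PBS replicate 5, where the other libraries lay at 57.12 to 57.64 TPM, Icam1 at 31.48 TPM in female WT leptin replicate 1 (next value 20.13), Sele at 3.46 TPM in male WT leptin replicate 4 (next value 2.29), Jam2 at 19.88 TPM in male WT PBS replicate 3 (next value 13.59), Jam2 at 14.91 TPM in male cKO leptin replicate 1 (next value 11.22) and Itgb7 at 12.15 TPM in male cKO leptin replicate 4 (next value 22.29). In LV they were Icam1 at 10.09 TPM in female cKO leptin replicate 2 (next value 7.28), Selp at 12.5 TPM in female WT leptin replicate 4 (next value 10.28), Pecam1 at 19.69 TPM in female cKO PBS replicate 3 (next value 17.09), and Cdh5 at 5.6 TPM and Itgb7 at 19.83 TPM in female WT PBS replicate 4 (next values 7.26 and 25.78). In iWAT they were Sele at 1.67 TPM in leptin replicate 5 (next value 1.07) and Itgb7 at 41.86 TPM in PBS replicate 1 (next value 30.75). The values of Madcam1 had no library apart in any group.

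The leptin change differed between CV and iWAT of WT females by a test of the difference for Selp, by 0.61, and for Cdh5, by 0.59, in edgeR's joint fit of the tissues.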

How the results depend on the processing

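Each count of called members was recomputed under the alternatives, and 539 of 569 counts stayed within 1.5 times of the reported one. With DESeq2, 2 members were called in each of female WT CV, male WT CV, female cKO CV and male cKO CV, where DESeq2 called 6.84%, 3.13%, 1.47% and 1.43% of all genes. With 1 fit of all CV groups the counts were 0 in female WT CV, 2 in female cKO CV and 1 in male cKO CV. With the mouse series as a covariate they were 2 in female WT CV and 0 in iWAT, and with limma on log2(TPM + 1) 3 members differed between CV and iWAT with PBS. When each library was left out, counts ranged from 0 to 2 in female WT CV, 1 to 2 in male WT CV, 0 to 1 in female and in male cKO CV, 0 to 3 in iWAT and 0 to 2 for the leptin change of CV against iWAT. Sele between CV and LV changed direction with limma on TPM, at 0.31 with a pseudocount of 1 and 0.39 with 0.1, and the cause was not tested.

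Leptin and PBS libraries with the same replicate number were different mice, and their residuals correlated at -0.402 to 0.51, so the numbers did not pair them. With a replicate block 1 of the other 9 members was called in female and in male WT CV, 0 of 10 in each cKO CV group and 1 of 10 with insulin, as without it. Tissues of 1 mouse were paired by mouse, and with that replicate block 8 members differed between CV and LV and 6 between CV and iWAT, so it changed no count. The insulin contrast of Madcam1 held at log2 values of 1.57 to 1.95. Low counts limit Madcam1 in LV, at 0 to 7 per library, although LV had the highest total counts.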
